A study of Rattus norvegicus with 30 samples.

Results

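The 35 rows that the count tables place on the mitochondrial chromosome (MT) were examined, of 32552 rows in all. They were taken by that chromosome name alone, and each was identified by its order of start position, its strand and its length on the circular genome, since the tables give identifiers without symbols. By this order 13 rows were the protein genes and 22 were the tRNA genes. The stretches 68 to 1025 and 1094 to 2664, where the 12S and 16S rRNA genes lie in mammals, held no row, so that the rRNAs were not analysed here. Coordinates are those of the tables, whose genome build is not given in the sources used here.

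The mitochondrial genome is transcribed from both strands as long precursors, from which the tRNAs are cut out and thereby release most of the mRNAs between them. Its protein genes all encode subunits of the respiratory chain: Mt-nd1 to Mt-nd6 and Mt-nd4l of complex I, which oxidises NADH, Mt-cyb of complex III, Mt-co1 to Mt-co3 of complex IV, which reduces oxygen, and Mt-atp6 and Mt-atp8 of complex V, the ATP synthase. Most of these mRNAs carry a poly(A) tail, whereas a mature tRNA ends in CCA. The libraries here were made from poly(A) RNA, so that a count on a tRNA row is a read from RNA that passed that selection and was assigned to the tRNA's span.

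RNA sequencing was done on 30 male Sprague-Dawley rats, with 1 library per rat. The 7 CT rats had saline for self-administration and were never shocked. SR (shock-resistant, n = 7) and SS (shock-sensitive, n = 6) rats self-administered methamphetamine (METH) for 21 days, and then for 8 days with foot-shocks on part of their lever presses. SR rats went on pressing under shock and SS rats cut down, so that these groups were set apart by behaviour after the same training. The 5 YSR and 5 YSS rats had saline too, and each was shocked whenever its SR or SS partner was. All rats were adult and wild type, and all groups were in the self-administration procedure. The labels name the dorsal striatum in one field and the hippocampus in another, and the study's methods describe the hippocampus; tissue markers could not be checked, since no identifier matched a symbol. Library names carry XII or XIII, taken here as the cohort (11 and 19 rats), and a letter L or R and a number that the sources do not explain.

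Total counts ranged from 14584340 to 19997820 per library, and TMM scaling factors from 0.976 to 1.04. SR XII-R05 stood apart in the make-up of its mitochondrial counts, and the 3 SR libraries lettered L stood apart from the 4 lettered R in the row Mt-tm; both are described with the results that rest on them. The replicates were separate rats, and the counting error was small beside the spread between them for the protein genes.

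Mitochondrial rows took 7.81% ± 0.742 (SD, n = 30) of the total count. The lowest share was 6.40% in CT XIII-R11 (95% Wilson interval 6.39 to 6.42%) and the highest 9.69% in SR XII-L05 (9.67 to 9.70%); such intervals cover counting error only. In CT the lowest, median and highest shares were 6.40%, 7.51% and 8.65%. In SR they were 6.66%, 7.85% and 9.69%. In SS they were 7.02%, 7.67% and 8.92%. In YSR they were 7.16%, 8.04% and 8.72%, and in YSS 7.67%, 7.90% and 8.18%. Every group's range overlapped every other's, and the group means lay between 7.52% in CT and 8.02% in YSR. In such bulk tissue, fewer cells rich in mitochondria and less mitochondrial RNA per cell cannot be told apart.

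**Figure D1:**
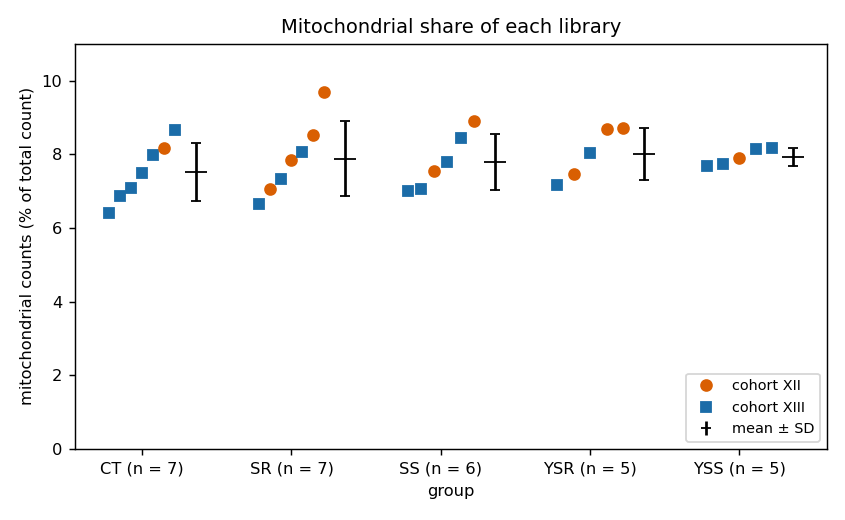
Mitochondrial counts as a percentage of the total count (y axis, from 0) for each library, by group (x axis), with the cohort shown by colour and shape and the group mean ± SD at the right of each group. The 5 groups overlap, from 6.40% to 9.69%, and the highest library of SR, SS and YSR belongs to cohort XII.

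The protein genes carried 99.7% of the mitochondrial counts. Mt-co1, the catalytic core of complex IV, was the most counted gene of the whole table, at 26.4% ± 1.29 of the mitochondrial counts and 2.06% of the total count. Mt-atp6 followed with 12.5% ± 0.303, Mt-co3 with 11.8% ± 0.361 and Mt-cyb with 10.9% ± 0.371 (SD, n = 30). Mt-nd2 (8.89%), Mt-co2 (8.09%), Mt-nd1 (7.73%) and Mt-nd5 (6.0%) came next, and these 8 genes were the 8 most counted of all genes. Mt-atp8 (2.21%), Mt-nd6 (1.80%), Mt-nd4l (1.39%), Mt-nd4 (1.18%) and Mt-nd3 (0.733%) were the lowest. By complex, the 3 genes of complex IV held 46.4% ± 1.53, the 7 of complex I 27.7% ± 1.35, the 2 of complex V 14.8% ± 0.331 and the only gene of complex III 10.9% ± 0.371.

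Per kilobase of gene length the order changed, and the protein genes spanned 21.5-fold. Mt-atp6 was highest, at 14402 ± 1551 CPM per kb (SD, n = 30), followed by Mt-co1 at 13342 ± 1263 and Mt-co3 at 11792 ± 1073, and the SDs of Mt-atp6 and Mt-co1 exceed the gap between them. Mt-co2 (9232 CPM per kb), Mt-atp8 (8472 CPM per kb) and Mt-cyb (7424 CPM per kb) formed the middle, with Mt-nd2 at 6692 and Mt-nd1 at 6332 CPM per kb. The lowest were Mt-nd4l at 3651, Mt-nd6 at 2708, Mt-nd5 at 2560, Mt-nd3 at 1642 and Mt-nd4 at 671 CPM per kb. Neighbours whose means lay within 1 SD of each other were Mt-atp6 and Mt-co1, Mt-co2 and Mt-atp8, Mt-cyb and Mt-nd2, Mt-nd2 and Mt-nd1, and Mt-nd6 and Mt-nd5. Mt-nd6 lies on the minus strand and overlaps the end of Mt-nd5 by 23 bases, and the sources do not say whether reads were counted by strand, so that reads of the 2 strands there cannot be told apart.

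Genes that are read from 1 shared mRNA in mammals did not have equal counts per length. Mt-nd4l and Mt-nd4, both of complex I, share an mRNA, overlap by 7 bases and lie at 9870-10166 and 10160-11537. Yet the counts per base of Mt-nd4l were 5.48 ± 0.594 times those of Mt-nd4 (SD, n = 30, range 4.06 to 7.29), and above 1 in every library. For the other such pair, Mt-atp8 (7758-7961) was at 0.589 ± 0.0334 times Mt-atp6 (7919-8599) per base. With the shared bases taken out of both lengths the ratios were 5.59 and 0.698. Reads were paired and of 150 bases, beside lengths of 204 bases for Mt-atp8 and 297 for Mt-nd4l, so that a read pair can span neighbouring genes. Counts per base of genes this short need not measure their level, and taking out the shared bases does not correct for that. The handling of multi-mapped reads, which is not given, could also bear on these ratios. From 9383 to 11735, the stretch that holds Mt-nd3, Mt-nd4l, Mt-nd4 and 5 tRNAs, the highest protein gene was Mt-nd4l at 3651 CPM per kb, whereas the lowest of the protein genes before it was Mt-nd1 at 6332.

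**Figure D2:**
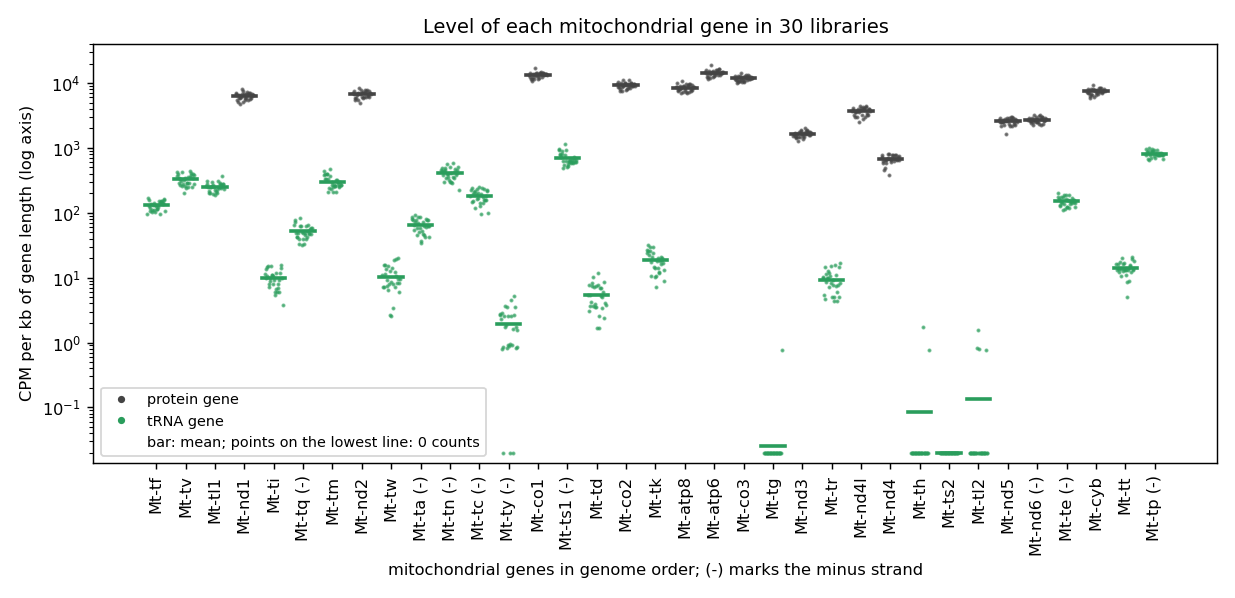
CPM per kb of gene length (y axis, log scale) of each mitochondrial gene in genome order (x axis), with 1 point per library and a bar at the mean; protein genes are dark, tRNA genes green, and libraries with 0 counts sit on the lowest line. Protein genes range from 671 CPM per kb for Mt-nd4 to 14402 for Mt-atp6, the highest tRNA row is Mt-tp at 816, and Mt-tg, Mt-th, Mt-ts2 and Mt-tl2 are at or near 0.

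The 22 tRNA rows, of 60 to 75 bases, summed to 0.306% ± 0.0305 of the mitochondrial counts (SD, n = 30). Mt-tp (tRNA-Pro) and Mt-ts1 (a tRNA-Ser) were highest, with mean counts of 974 and 841 per library, or 816 and 696 CPM per kb. Mt-tn (tRNA-Asn, 513), Mt-tv (tRNA-Val, 390), Mt-tm (tRNA-Met, 366) and Mt-tl1 (a tRNA-Leu, 331) followed in mean count. The 8 tRNA rows of the minus strand held a mean of 2869 counts per library in all, against 1319 for the 14 of the plus strand. Since strand use in counting is not given, a read from the opposite strand could be among them.

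Among the tRNA rows 16 entered the tests and 6 did not pass the filter on low counts. Of those left out, Mt-td had 2 to 13 counts per library and Mt-ty 0 to 5. Mt-tg, Mt-th and Mt-tl2 never exceeded 2 counts in a library, and Mt-ts2 had 0 in all 30, which allows a level of up to 0.206 CPM in the shallowest library (3 counts). Mt-tg sits between Mt-co3 and Mt-nd3, and the other 3 form a run between Mt-nd4 and Mt-nd5.

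The relative make-up of the mitochondrial counts varied less between rats than their total did. The coefficient of variation over the 30 libraries was 9.49% for the mitochondrial share of the total count. For single protein genes it was 9.10% (Mt-co3) to 14.9% (Mt-nd4) in CPM of the total count. As a share of the mitochondrial counts it was 2.41% (Mt-atp6) to 9.24% (Mt-nd4), and lower for each of the 13 genes. Counting alone would give 0.166% to 0.999%.

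The library SR XII-R05 departed from this make-up. There Mt-co1 took 31.8% of the mitochondrial counts (interval 31.7 to 31.8%), against 25.3 to 26.8% in the other 6 SR libraries. Its complex IV genes summed to 52.7% and its complex I genes to 22.8%, with Mt-nd4 at 0.752% and Mt-nd5 at 4.24%. The share of Mt-nd4 in the other SR libraries was 1.15 to 1.29%. Its mitochondrial share of the total count, 7.06%, was within the range of the others.

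Whether the 13 protein genes differed among the 5 groups was asked first, with edgeR's quasi-likelihood test fitted over all 15797 genes that passed the filter, 29 of them mitochondrial. CPM of Mt-co1 had a lowest, median and highest value of 16681, 19054 and 22035 in CT. In SR the values were 17844, 21501 and 25967, and in SS 17839, 20786 and 23201. In YSR they were 19245, 20960 and 22377, and in YSS 20842, 21196 and 21269. CT held the lowest library, and all groups overlapped. None of the 13 passed an unadjusted p of 0.05 over the 5 groups; the smallest p was that of Mt-nd3, 0.218, with an adjusted p of 0.815. Of the 29 mitochondrial genes tested 4 passed the unadjusted threshold, all tRNA rows, beside 7.32% of all genes tested. None passed after adjustment with edgeR, beside 0.171% of all genes. With DESeq2's likelihood-ratio test 2 did, Mt-tm and Mt-ts1, and the share of all genes that DESeq2 called is not given here.

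Against CT, 11 of the 13 protein genes were estimated above 0 in SR, 12 in SS, all 13 in YSR and 12 in YSS, all by small amounts. These 4 comparisons share the 7 CT libraries. The estimates lay between -0.07 and 0.14 on the log2 scale in SR vs. CT and between -0.04 and 0.19 in SS vs. CT. They lay between 0.02 and 0.23 in YSR vs. CT and between -0.01 and 0.17 in YSS vs. CT. For Mt-co1 the difference from CT was 0.14 ± 0.07 (SE) in SR, 0.10 ± 0.08 in SS, 0.14 ± 0.08 in YSR and 0.13 ± 0.08 in YSS, none past an unadjusted p of 0.05. The fit across all genes centres the median gene near 0, and the median over all genes tested was between -0.0016 and 0.0047 in these comparisons.

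Mt-nd3, a small subunit of complex I, was the only protein gene past the unadjusted threshold in any of the 8 pairwise comparisons with all libraries. Its CPM was 488, 535 and 595 (lowest, median, highest) in CT and 567.96, 601, 625.1, 629 and 668 in the 5 YSR libraries. The YSR libraries lay in the upper part of the range or above it, and the groups overlapped. The difference was 0.20 ± 0.08 (SE, log2), with an adjusted p of 0.611 by edgeR's quasi-likelihood test. With the cohort as a covariate it was 0.14 ± 0.08, and within cohort XIII alone 0.15 ± 0.10, neither past the unadjusted threshold. On the scale of the mitochondrial counts its share in YSR, 0.719 to 0.806%, lay within that of CT, 0.663 to 0.840%.

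Between the METH and yoked groups the protein genes had estimates on both sides of 0. SR vs. SS gave log2 differences of -0.10 to 0.05 over the 13 genes, SR vs. YSR -0.14 to 0.00, SS vs. YSS -0.04 to 0.04 and YSR vs. YSS -0.01 to 0.11. No protein gene passed an unadjusted p of 0.05 in these 4 comparisons with all libraries. In 3 candidate SR and YSR pairs, taken from adjacent code numbers and set as a block, Mt-nd1 (-0.29 ± 0.13) and Mt-nd4 (-0.41 ± 0.17) were lower in SR at that threshold (adjusted p = 0.866 and 0.864, edgeR). These pairs hold SR XIII-R07, XIII-R09 and XII-R05, all lettered R, and XII-R05 is the library of unusual make-up described above. In CPM, Mt-nd4 was 531 there against 1077 in YSR XII-R06, and 814 in SR XIII-R07 against 976 in YSR XIII-R08. In SR XIII-R09 it was higher, at 933 against 852 in YSR XIII-R10, and Mt-nd1 had the same directions in the 3 pairs. With all libraries Mt-nd1 was at -0.03 ± 0.11 and Mt-nd4 at -0.14 ± 0.13. Without the block the libraries of the pairs also had Mt-nd2 (-0.29 ± 0.13) and Mt-nd4l (-0.34 ± 0.14) past the threshold. With all libraries Mt-nd2 was at -0.08 ± 0.11 and Mt-nd4l at -0.10 ± 0.12, so that the larger differences of the pair fits were not seen there. The SEs of the estimates with all libraries were up to 0.14.

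Counting all 29 mitochondrial genes tested, the comparison of SR with CT had 2 past the unadjusted threshold, beside 10.5% of all genes. SS against CT had 7 (5.01% of all genes), YSR against CT had 5 (7.56%) and YSS against CT had 3 (5.01%). SR against SS had 3 (7.46%), SR against YSR had 1 (8.17%), SS against YSS had 2 (4.27%) and YSR against YSS had 0 (3.29%). DESeq2 gave 0 in YSR vs. YSS as well. All but Mt-nd3 were tRNA rows. After adjustment none passed in any of the 8. Of all genes, 0.101% passed for SS, 0.12% for YSR, 0.0823% for YSS and 0% for SR against CT. Among the remaining comparisons 0.0253% passed between SR and YSR and 0% between SR and SS, SS and YSS, and YSR and YSS. These shares are those of edgeR. DESeq2 called 2 after adjustment in SS vs. CT, Mt-tm and Mt-ts1, and its share of all genes is not given here.

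**Figure D3:**
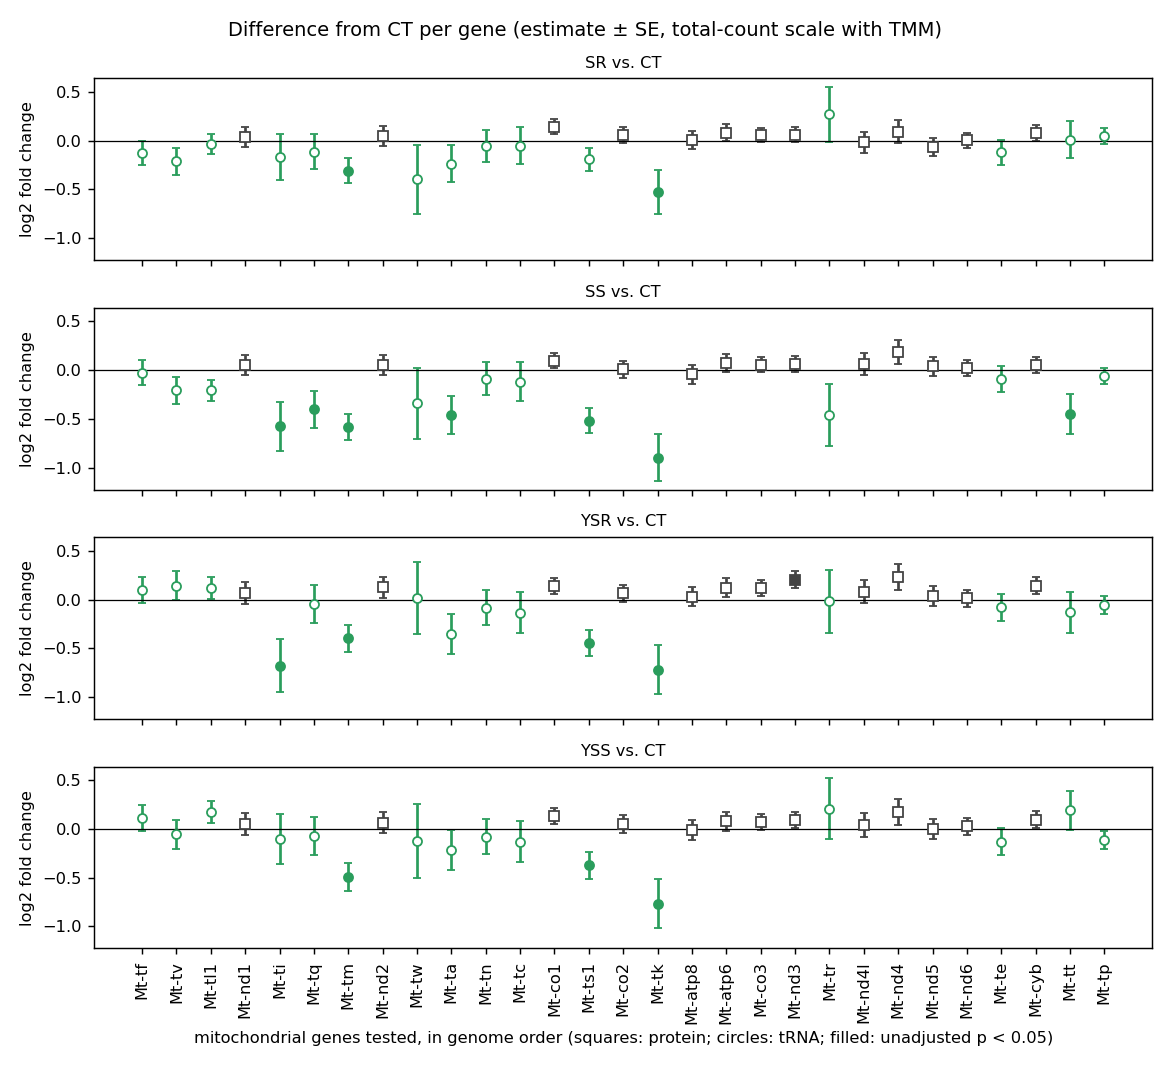
Log2 difference from CT (y axis, estimate ± SE from edgeR on the total-count scale) of the 29 mitochondrial genes tested, in genome order (x axis), for SR, SS, YSR and YSS; squares are protein genes, circles tRNA rows, and filled symbols passed an unadjusted p of 0.05. Protein genes stay between -0.07 and 0.23, while Mt-tm, Mt-ts1 and Mt-tk lie below 0 in all 4 panels.

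Lower shares in SS, YSR and YSS than in CT were found for the tRNA rows Mt-tm (ENSRNOG00000032274), Mt-ts1 (ENSRNOG00000032882) and Mt-tk (ENSRNOG00000029070), and SR spanned both levels. They lie at 3835-3903, 6865-6933 and 7693-7756. Mt-tm precedes Mt-nd2 directly, Mt-ts1 lies on the minus strand and overlaps the end of Mt-co1 by 3 bases, and Mt-tk lies between Mt-co2 and Mt-atp8. Mt-tm made up 0.0319 to 0.0392% of the mitochondrial counts in CT (median 0.0354%). It made up 0.0198 to 0.0246% in SS, 0.0203 to 0.0272% in YSR and 0.0223 to 0.0248% in YSS. No SS, YSR or YSS library reached the lowest CT library. In counts these were 368 to 528 reads per library in CT and 255 to 417 in the 3 groups, so that they rest on a small part of each library.

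For Mt-ts1 the share was 0.0722 to 0.0824% in CT, 0.0457 to 0.0584% in SS, 0.0487 to 0.0568% in YSR and 0.0503 to 0.0660% in YSS. For Mt-tk (tRNA-Lys), a row of 23 to 38 counts per library in CT and 8 to 23 in SS, it was 0.00190 to 0.00283% in CT, 0.000654 to 0.00173% in SS, 0.000967 to 0.00155% in YSR and 0.000687 to 0.00166% in YSS. In both rows CT again lay wholly above SS, YSR and YSS. These rows and Mt-tm were picked from these same values. The share of all genes tested, or of the other mitochondrial rows, that separate CT in this way was not counted.

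On the total-count scale, edgeR's quasi-likelihood test gave Mt-tm a log2 difference from CT of -0.31 ± 0.13 (SE) in SR (adjusted p = 0.412). The difference was -0.58 ± 0.14 in SS (adjusted p = 0.119), -0.40 ± 0.14 in YSR (0.562) and -0.50 ± 0.14 in YSS (0.617). For Mt-ts1 the differences were -0.19 ± 0.12, -0.52 ± 0.13, -0.45 ± 0.13 and -0.37 ± 0.13 in the same order, and for Mt-tk -0.53 ± 0.22, -0.90 ± 0.24, -0.72 ± 0.25 and -0.77 ± 0.25. All 12 were negative, and Mt-ts1 in SR vs. CT was the only one not past an unadjusted p of 0.05.

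Scaled to the mitochondrial counts, the test over 5 groups gave Mt-tm an adjusted p of 0.00133 and Mt-ts1 an adjusted p of 0.0124 (edgeR, adjusted over all 15797 genes). On this scale 6 of the 29 passed the unadjusted threshold, all tRNA rows, beside 2.63% of all genes, and these 2 passed after adjustment, beside 0.184%. Mt-tk had an adjusted p of 0.293. Against CT, Mt-tm was at -0.40 ± 0.10 in SR, -0.64 ± 0.11 in SS, -0.52 ± 0.11 in YSR and -0.58 ± 0.11 in YSS. Its adjusted p was 0.737 in SR, 7.59e-04 in SS, 0.0281 in YSR and 0.00800 in YSS. Mt-ts1 passed in SS (-0.58 ± 0.11, adjusted p = 0.00672) and YSR (-0.55 ± 0.12, 0.0235), and had an adjusted p of 0.249 in YSS (-0.45 ± 0.12) and 0.946 in SR (-0.27 ± 0.11). Mt-tk passed in none, with adjusted p from 0.109 in SS to 0.946 in SR.

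On this scale 5, 9, 5 and 4 of the 29 passed the unadjusted threshold in SR, SS, YSR and YSS vs. CT, beside 4.55%, 2.29%, 6.86% and 3.78% of all genes. After adjustment 0, 2, 2 and 1 passed, beside 0%, 0.139%, 0.158% and 0.127%. Mt-nd5 in SR vs. CT was the only protein gene among them (-0.14 ± 0.07, adjusted p = 0.946, edgeR). Its share was 4.24% in SR XII-R05, the library of unusual make-up, and 5.18% in SR XII-L05. The rest of SR had 5.95 to 6.18%, against 5.95 to 6.72% in CT. Leaving out each of the 30 libraries in turn kept an adjusted p under 0.05 for Mt-tm and Mt-ts1 over the 5 groups and in SS vs. CT, and for Mt-tm in YSS vs. CT, in all 30 cases. In YSR vs. CT it was kept in 23 of 30 for Mt-tm, with an adjusted p of up to 0.191, and lost without CT XIII-L12, XIII-R05 or XIII-R12 or without YSR XIII-R10, XII-R02, XII-R06 or XII-R10. For Mt-ts1 it was kept in 24 of 30, with up to 0.141, and lost without CT XIII-L11 or XIII-R12 or without YSR XIII-R08, XII-R02, XII-R06 or XII-R10. Scaling to the mitochondrial counts moved the median of all genes tested by -0.11 in YSR vs. CT and by -0.14 in the cohort comparison, so that changes of the mitochondrial rows there are relative to the mitochondrial total. Nuclear rows of the same lengths, 464 genes of 60 to 75 bases, summed to 60.6 to 75.7 CPM in CT, within the 49.0 to 83.0 CPM spanned by the other groups. This sum is per total count, and it cannot show whether single short rows differed.

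Within SR the libraries divided in these rows. Mt-tm made up 0.0308%, 0.0338% and 0.0322% of the mitochondrial counts in SR XIII-L09, XII-L05 and XII-L07, the 3 lettered L. In the 4 lettered R, XIII-R07, XIII-R09, XII-R05 and XII-R07, it made up 0.0213%, 0.0204%, 0.0230% and 0.0237%. For Mt-ts1 the L libraries had 0.0600%, 0.0811% and 0.0695%, and the R libraries 0.0514%, 0.0472%, 0.0895% and 0.0501%, where 0.0895% belonged to SR XII-R05 and was the highest of all 30. For Mt-tk the L libraries had 0.00152%, 0.00196% and 0.00197%, and the R libraries 0.00101%, 0.00165%, 0.00134% and 0.000780%. In Mt-tm the L libraries lay wholly above the R libraries and 2 of the 3 lay within the range of CT; in the other 2 rows L and R overlapped.

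A gene row on chromosome 2 (182027115 to 182038178, minus strand), ENSRNOG00000007092, divided the SR libraries in the same way as Mt-tm. It had 69 to 121 counts in CT, 101, 65 and 71 in the SR libraries lettered L, and 0, 0, 1 and 0 in those lettered R, and at most 1 in every SS, YSR and YSS library. Mt-ts1 and Mt-tk did not follow it in every library, since SR XII-R05 had 1 count of it and the highest Mt-ts1 share, and SR XIII-R09 had 0 and more Mt-tk than SR XIII-L09. The row ENSRNOG00000007092 was picked after the values were seen, and the share of all genes that divide the libraries in this way was not counted. Its part in the Mt-tm values was not tested. For comparison, Mt-tm in the SS libraries lettered L was 0.0208 to 0.0246%, and in those lettered R 0.0198% and 0.0222%, so that the letters overlapped there.

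With the 3 SR libraries lettered L left out, the log2 estimate of SR vs. CT was -0.65 for Mt-tm, -0.39 for Mt-ts1 and -0.90 for Mt-tk (edgeR, total-count scale). That of SR vs. SS for Mt-tm was -0.07, where all 7 SR libraries gave 0.28 ± 0.14. The letters were compared only after these values had been seen and the libraries left out were those nearest to CT in Mt-tm, so that a larger difference from CT follows from the choice and no test is given.

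**Figure D4:**
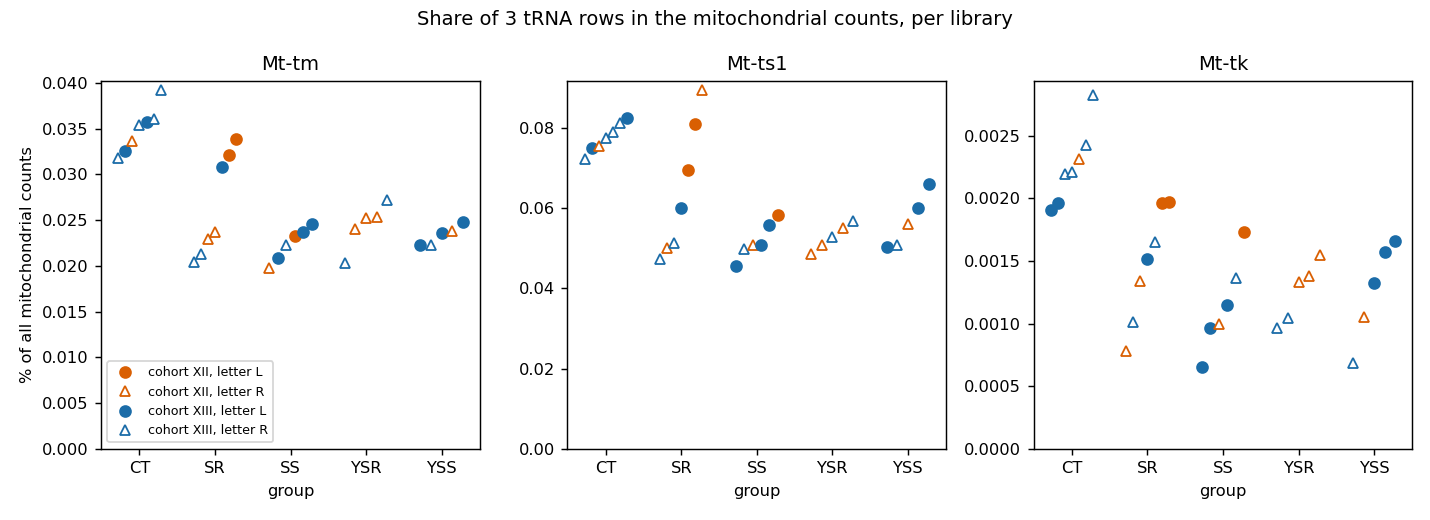
Share of Mt-tm, Mt-ts1 and Mt-tk in the mitochondrial counts of each library (y axis, percent, from 0) by group (x axis); colour gives the cohort and filled circles or open triangles the letter L or R, with libraries in each group drawn in order of value. CT lies above SS, YSR and YSS in all 3 panels, and the 3 SR circles lie above the 4 SR triangles for Mt-tm.

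The differences were also taken within cohorts. With the cohort as a covariate Mt-tm was at -0.62 ± 0.13 in SS vs. CT (adjusted p = 0.0395, edgeR, total-count scale) and Mt-ts1 at -0.58 ± 0.11 (adjusted p = 0.0190). The other comparisons with CT under this covariate are not given here. Nor is the share of all genes that passed after adjustment in these fits or in those within cohort XIII. Within cohort XIII alone, the only one with more than 1 CT rat, Mt-tm was at -0.57 ± 0.14 in SR, -0.59 ± 0.13 in SS, -0.53 ± 0.17 in YSR and -0.49 ± 0.13 in YSS. Mt-ts1 was at -0.59 ± 0.10, -0.59 ± 0.09, -0.48 ± 0.11 and -0.36 ± 0.09, with an adjusted p of 0.0236 in SR, 0.0106 in SS, 0.512 in YSR and 0.232 in YSS (edgeR). In the same order Mt-tk was at -0.68 ± 0.28, -1.05 ± 0.27, -1.12 ± 0.35 and -0.68 ± 0.26. The adjusted p of Mt-tm and Mt-tk within this cohort is not given here. In cohort XII the CT group was 1 rat, CT XII-R11, with 0.0336% for Mt-tm and 0.0754% for Mt-ts1.

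Summed over all 22 rows, the tRNAs took 0.336 to 0.366% of the mitochondrial counts in CT (median 0.345%). The other groups spanned 0.269 to 0.332% in SR, 0.260 to 0.302% in SS, 0.277 to 0.305% in YSR and 0.248 to 0.323% in YSS. Every CT library was above every other library, with the nearest at 0.332% (SR XII-R05). The rows were not all lower to the same degree: among the 16 tested, 13 were estimated below CT in SR, 16 in SS, 12 in YSR and 12 in YSS, and the median log2 difference was -0.13, -0.37, -0.08 and -0.11. Over all genes tested the medians were 0.0028, 0.0047, 0.0016 and -0.0016. The sum includes Mt-tm, Mt-ts1 and Mt-tk, the rows already picked out above for their higher shares in CT, so that it is no separate result. It was not taken without them, and no p is given for it.

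Other tRNA rows passed an unadjusted p of 0.05 in single comparisons, and none after adjustment. In SS vs. CT these were Mt-ti (tRNA-Ile, -0.58 ± 0.25), Mt-tq (tRNA-Gln, -0.40 ± 0.19), Mt-ta (tRNA-Ala, -0.46 ± 0.20) and Mt-tt (tRNA-Thr, -0.45 ± 0.20), and Mt-ti was also lower in YSR vs. CT (-0.68 ± 0.27). In SS vs. YSS they were Mt-tl1 (-0.38 ± 0.12) and Mt-tt (-0.64 ± 0.22). In SR vs. SS they were Mt-ts1 (0.33 ± 0.13), Mt-tr (tRNA-Arg, 0.73 ± 0.31) and Mt-tt (0.46 ± 0.20), and in SR vs. YSR Mt-tv (-0.35 ± 0.15; -0.30 ± 0.24 and not past it with the candidate pairs as a block). Mt-tt in SS vs. YSS was -0.47 ± 0.27 with the 4 candidate pairs of those groups as a block, and not past it. Mt-ti, Mt-tr and Mt-tt had mean counts of 11.9, 11.03 and 16.5 per library. Within cohort XIII alone Mt-ts1 in SR vs. SS was 0.01 ± 0.10.

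The cohorts were compared with the group in the model, since the groups were spread unevenly over them. Mitochondrial rows took 7.06 to 9.69% of the total count in the 11 rats of cohort XII (median 8.16%) and 6.40 to 8.65% in the 19 of cohort XIII (median 7.67%). The ranges overlapped. Within groups the mean was higher in XII than in XIII in CT (8.16% in 1 rat, 7.42%), SR (8.28%, 7.35%), SS (8.23%, 7.58%) and YSR (8.29%, 7.60%). In YSS it was 7.90% in 1 rat and 7.94%.

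All 13 protein genes were estimated higher in cohort XII, by 0.05 (Mt-nd4l and Mt-nd5) to 0.17 (Mt-co2) on the log2 scale of the total count. Mt-co1 had a lowest, median and highest CPM of 19824, 22053 and 25967 in XII and of 16681, 19839 and 22035 in XIII. Its difference was 0.16 ± 0.05 (SE) with an adjusted p of 0.0950 (edgeR). Mt-co2 was at 0.17 ± 0.05, Mt-nd1 at 0.17 ± 0.07, Mt-atp6 at 0.16 ± 0.06, Mt-nd3 at 0.15 ± 0.05, Mt-co3 at 0.14 ± 0.05, Mt-nd6 at 0.13 ± 0.06 and Mt-cyb at 0.12 ± 0.06. These 8 protein genes and the rows Mt-tm, Mt-ts1 and Mt-tp passed an unadjusted p of 0.05, all higher in XII, which makes 11 of 29 beside 16.4% of all genes tested. None passed after adjustment with edgeR, beside 0.481% of all genes, and none with DESeq2.

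The cohorts were also compared relative to the mitochondrial total. There the estimates of the 13 protein genes lay between -0.09 (Mt-nd4l and Mt-nd5) and 0.03 (Mt-co2) on the log2 scale, and Mt-co1 was at 0.02 ± 0.04. With edgeR none of the 29 genes passed an unadjusted p of 0.05, beside 33.5% of all genes, and none passed after adjustment, beside 7.38%; these shares are those of nuclear genes set against the mitochondrial total. Leaving out single libraries changed the number past the unadjusted threshold on the total-count scale from 11 to between 6 and 14. It dropped to 6 without SR XIII-R07 and to 7 without SR XII-L05, SS XII-R03 or YSR XIII-R10.

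**Figure D5:**
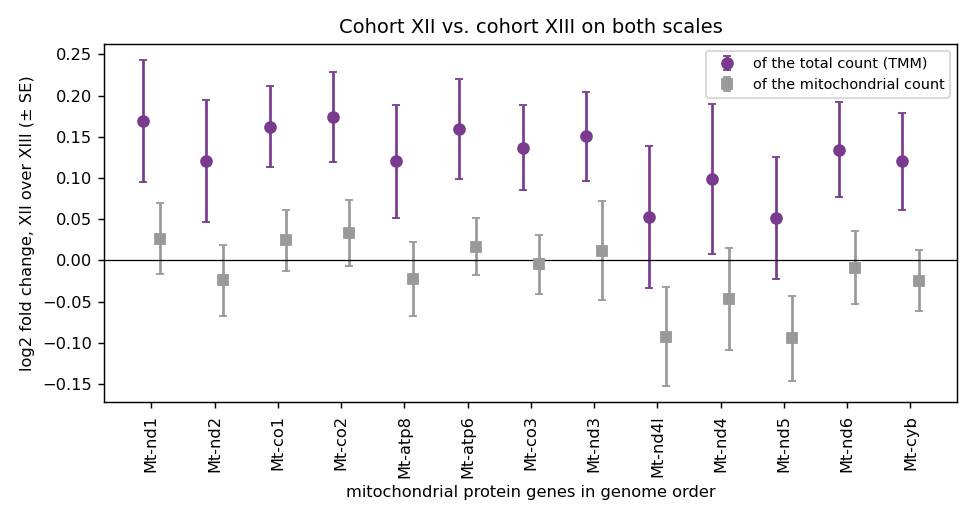
Log2 difference of cohort XII from cohort XIII (y axis, estimate ± SE, edgeR with group in the model) for the 13 protein genes in genome order (x axis), in counts of the total (circles) and of the mitochondrial total (squares). On the total-count scale all 13 lie above 0, from 0.05 to 0.17, and on the mitochondrial scale they lie between -0.09 and 0.03.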

How the data were processed

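RNA sequencing counts of 30 rat libraries were used, 1 per rat, made from poly(A) RNA selected with oligo(dT) and sequenced as paired reads. The deposited values are raw counts of reads per gene, which the authors made, per the submitters' processing notes, with bcl2fastq 2.17, Trimmomatic 0.36, STAR 2.5.2b and featureCounts of Subread 1.5.2. The genome build, the annotation release, the handling of multi-mapped reads and the use of strand are not given in the sources used here, so that nuclear copies of mitochondrial sequence could take or lend reads. Total counts were 14584340 to 19997820 per library. Groups came from the sample titles.

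From these counts, CPM were computed per total count, and shares per mitochondrial count. Gene names were set from the order, strand and length of the 35 rows, and 0 identifiers matched the reference table of symbols, so that nuclear gene lists and cell markers were not analysed here. Groups were compared with edgeR 4.0.16 in R 4.3.3 (quasi-likelihood test, group-only model, TMM scaling, filterByExpr, 15797 genes, Benjamini-Hochberg adjustment over all of them). The cohort was tested with group in the model. A second fit took the mitochondrial total as the library size. The script was tested on simulated data. Members and lists were chosen with earlier results of these data known. Genes named were the 13 protein genes and the tRNA rows that passed the filter, with values for those past an unadjusted p of 0.05. The row ENSRNOG00000007092 and the comparison of the letters L and R were chosen after the values were seen. All 13 METH libraries have odd and all 10 yoked libraries even code numbers, and 7 METH libraries have a yoked library of the next number, cohort and letter in the matching yoked group. No label states that these are yoked pairs. The deviations from the group means correlated at 0.113 to 0.241 in the 3 SR pairs and at -0.138 to 0.0461 in the 4 SS pairs. Whatever their correlation, all 7 pairs were also fitted together with the pair as a block. Alternatives were DESeq2 1.42.0, Tukey's multiple comparison test (CPM on the log2 scale), other library sizes and filters, cohort or letter as a covariate, single cohorts, and leaving out each library in turn. Intervals for single shares are 95% Wilson intervals.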

Additional observations from a re-analysis of the deposited data

Results flagged for a closer look

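In each group, the share of each protein gene in the mitochondrial counts, the summed tRNA share and the mitochondrial share of the total were searched for a single library far from the rest by Dixon's test, in 75 sets of values. It marked 7, where chance marks about 1 in 20 independent sets, or 3.75. The sets here are not independent, since the shares of a library sum to a fixed total, so that 7 against 3.75 shows no excess. SR XII-R05 accounted for 4 of them: Mt-co1 at 31.8% of the mitochondrial counts (25.3 to 26.8% in the other SR libraries), Mt-co2 at 9.54% (7.77 to 8.21%), Mt-nd2 at 7.17% (8.59 to 9.47%) and Mt-nd4 at 0.752% (1.15 to 1.29%). SS XII-L03 accounted for 2, with Mt-co1 at 28.8% (25.4 to 26.7% in the other SS libraries) and Mt-nd6 at 1.60% (1.83 to 1.89%). In YSS XIII-L04, Mt-nd1 was at 7.22% (7.74 to 7.92%).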

How the results depend on the processing

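Replicate numbers were given in accession order and pair nothing, and no label names each yoked rat's partner. The library codes give 7 candidate pairs (chosen after seeing the data). As a replicate block on those 14 libraries alone they gave 2 mitochondrial genes past an unadjusted p of 0.05 in SR vs. YSR (5 without the block, 1 with all libraries) and 1 in SS vs. YSS (1 without the block, 2 with all). In SS vs. YSS the pairs' deviations correlated at -0.138 to 0.0461, and in 1 of the 4 the SS library correlated best with its own partner. Such correlations cannot settle whether these rats were yoked, since yoking matched the shocks and not the expression. Counts of mitochondrial genes past an unadjusted p of 0.05 moved by over 1.5 times as follows. In SR vs. CT, 2 became 0 with Tukey's multiple comparison test, 1 with at least 10 counts in every library and 4 with SR rats lettered R alone, a choice made after the values were seen that supports nothing. In SR vs. SS, 3 became 0 (Tukey), 1 (10 counts) and 0 (cohort XIII alone). In SR vs. YSR, 1 became 2 (total count as library size), 0 (Tukey), 0 (XIII alone), 4 (XII alone) and 2 (SR lettered R). In SS vs. CT, 7 became 3 (Tukey) and 4 (10 counts), in SS vs. YSS 2 became 1 (10 counts), in YSR vs. CT 5 became 1 (Tukey) and 3 (10 counts), and in YSR vs. YSS 0 became 1 (XIII alone). The mitochondrial share in YSS, 7.93% of all counts, was 8.61% of the nuclear counts. Mt-tv in SR vs. YSR reversed from -0.35 to 0.069 within cohort XIII. The cause was not tested.

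Leaving out 1 library in turn gave 3 to 5 over the 5 groups, 1 to 3 in SR vs. CT (1 without SR XIII-R07, XII-R05 or XII-R07), 1 to 4 in SR vs. SS (1 without SR XII-L05 or SS XII-L03), 0 to 3 in SR vs. YSR (0 without SR XII-R05 or YSR XII-R02), 4 to 8 in SS vs. CT (4 without SS XIII-L07 or XII-L03), 2 to 3 in SS vs. YSS, 4 to 8 in YSR vs. CT (8 without CT XIII-L12), 0 to 1 in YSR vs. YSS (1 without YSR XII-R06 or YSS XII-R04), 3 to 4 in YSS vs. CT and 6 to 14 between cohorts. On the mitochondrial scale it gave 3 to 6 over the 5 groups (3 without SS XIII-R03) and 0 to 2 between cohorts. Direction was followed in these fits for the estimates past an unadjusted p of 0.05 with all libraries on the total-count scale. It was also followed for Mt-tm, Mt-ts1 and Mt-tk against CT on the mitochondrial scale. None of these changed direction, and the other estimates, many of them near 0, were not followed. On the total-count scale, an adjusted p under 0.05 in SS vs. CT, absent with all libraries, appeared for Mt-tm without SR XIII-R07, for Mt-tm and Mt-ts1 without SR XII-L05, with DESeq2 and with cohort as a covariate, for Mt-tm with the letter as a covariate, and for Mt-ts1 within cohort XIII, there also in SR vs. CT. Over the 5 groups it appeared for Mt-tm without SR XII-L05, for both with DESeq2 and for Mt-ts1 within cohort XIII. The share of all genes that passed in these fits is not given here. Depth limits rows such as Mt-tk, with 8 to 38 counts per library.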
